A study of Mus musculus with 3 samples.

Results

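The AP-1, ATF3 and BATF transcription factors described here are 10 mouse genes taken by their symbols: the FOS family genes Fos, Fosb, Fosl1 and Fosl2, the JUN family genes Jun, Junb and Jund, and the related genes Atf3, Batf and Maff. They are 10 of 55536 annotated gene entries, and the rule that names them uses symbols and no threshold on a measured value. The RNA came from the chromatin fraction of bone-marrow-derived macrophages (macrophages grown in culture from marrow precursors) of C57BL/6J mice, collected 90 minutes after stimulation with Lipid A at 100 ng/ml. Lipid A is the part of bacterial lipopolysaccharide that activates the receptor TLR4. Ribosomal RNA was depleted and total RNA sequencing was done on 3 biological replicates, which form 1 group and started from 1 µg (replicate 1), 250 ng (replicate 2) and 500 ng (replicate 3) of RNA. All of them carry the same donor label, and the labels do not say whether the cultures were separate, so every p-value below measures only the spread between these libraries, which may be technical. No unstimulated cells and no other time points were analysed here. What follows is the level of each gene at 90 minutes, with no measure of how far Lipid A moved it.

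AP-1 is a dimer of basic leucine zipper (bZIP) proteins: a zipper pairs the partners and the basic region before it grips DNA. JUN proteins pair with themselves or with FOS proteins, and in the textbook view FOS proteins cannot pair with themselves. Fos, Fosb, Jun, Junb and Atf3 are known as immediate early genes, which are transcribed within minutes of a signal through MAP kinases and whose RNA decays fast, and RNA on chromatin is enriched for transcripts that are still being made or processed.

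The 10 genes have a related core of the basic region, which is why it is printed here. The lines below give 9 codons (27 bases) of the coding sequence of each gene, from the GENCODE M21 transcripts, with capitals for the bases that differ from Fos.
Fos: aataagatggctgcagccaagtgccgg
Fosb: aaCaagCtggctgcagcTaagtgcAgg
Fosl1: aaCaagCtAgcAgcTgcTaagtgcAgA
Fosl2: aaCaagCtAgctgcagccaagtgTcgg
Jun: aaCCGCatTgcCgcCTccaagtgccgg
Junb: aaCaGgCtggcGgcCAccaagtgccgg
Jund: aaCCGCatCgcCgcCTccaaAtgccgC
Atf3: aataaAatTgctgcTgccaagtgTcgA
Batf: aatCGCatCgctgcCCAGaagAgccgA
Maff: aaCCGCGGCTACgcGgccaGCtgccgC
Within the FOS family Fosb and Fosl2 kept 23 of the 27 bases of Fos and Fosl1 kept 19. In the JUN family Junb kept 21, Jun 19 and Jund 17. Atf3 shared 22 bases with Fos, Batf shared 17, and Maff, whose family reads a longer DNA site, shared 13. Over longer stretches this likeness did not carry over. No stretch of 31 bases in the transcripts of any member occurred in another member on either strand, so reads of that length are not shared among the 10 genes.

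The libraries held 11277198, 24965749 and 19794886 expected counts in replicates 1 to 3, and the detection floor of 3 counts was 0.266, 0.12 and 0.152 CPM (counts scaled to the library total) in that order, which covers counting error only. The adjoining genes Gm26917, CT010467.1 and Gm42418, a locus with ribosomal RNA sequence, took 9.3%, 50.8% and 38.3% of the counts, and a larger share there lowers every other TPM (length-corrected counts scaled to the same total in every library) in that library. Levels are therefore given in TPM per library and as a relative level, which is log2(TPM + 1) minus the median of 10520 expressed nuclear protein-coding genes of the same library. Of 10 macrophage markers 8 lay above the bound described below, and over all tested genes 21.3% lay above it and 21.3% below. Itgam and Fcgr1 passed no bound, at relative levels of -0.49 ± 0.26 and -0.53 ± 0.52. The highest were Adgre1 (the F4/80 antigen) at 221 ± 45.9 TPM and Msr1 (a scavenger receptor) at 224 ± 81.1 TPM (SD, n = 3). Mrc1 (the mannose receptor) at 111 ± 11.1 TPM and Csf1r (the receptor of the growth factor M-CSF) at 41.1 ± 8.58 TPM were next in relative level. Of the markers of other cells, none of 7 neutrophil and none of 4 B cell genes reached the minimum count for a test, and their summed levels ran from 0 to 1.44 and from 0 to 0.12 TPM. Of 6 T and NK cell genes, 2 were tested and passed no bound (sum 0.98 to 3.15 TPM, with Cd3e, Cd8a and Ncr1 at 0 in the alignment-based tables). The 1 tested of 4 dendritic cell genes passed none either (sum 1.43 to 1.88 TPM). Below the bound lay Kit, the only tested one of 4 mast cell and basophil genes (sum 0.4 to 1.96 TPM), and 3 of 5 stromal and endothelial genes (sum 0.3 to 1.89 TPM), the lowest being Col1a2 and Col3a1, which encode collagens. All these marker levels are from the alignment-based tables. In the alignment-free tables, which were made without an alignment file, some of these genes were higher. There the T cell gene Cd3d had 21.5, 8.7 and 14.6 TPM, against 0.05, 0 and 0. The endothelial gene Pecam1 had 8.88, 2.29 and 4.38 TPM there, against 0.21, 0.22 and 0.08. The part of other cell types in the levels of the members was not tested. In bulk RNA fewer cells of a type and less RNA per cell cannot be told apart.

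A gene was called above or below the typical expressed gene where its relative level passed a bound of 1 log2 unit in limma's treat test, fitted on the 13434 genes whose expected counts averaged 10 or more and adjusted by Benjamini-Hochberg at 0.05. Of the 10 members 9 entered the fit, each at its gene TPM, which sums all annotated isoforms including intron-retaining ones. The 4 genes Junb, Fosl2, Batf and Atf3 lay above the bound, against a background of 21.3% of all tested genes, and Fosb lay below it, against a background that was also 21.3%. Among the 10520 tested protein-coding genes alone, the class of the members, 2533 lay above the bound and 2055 below. Fos, Jun, Jund and Maff lay on neither side, and Fosl1 was not tested.

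**Figure D1:**
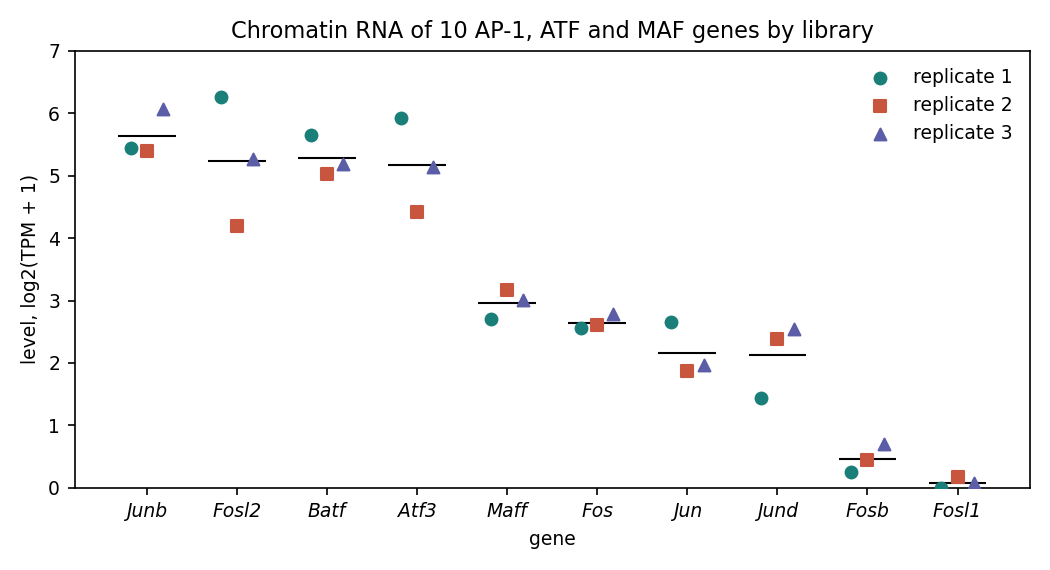
Levels of the 10 genes in the alignment-based tables, as log2(TPM + 1) on the vertical axis. Each library has 1 marker, a bar marks the mean, and the genes are in the order of mean TPM. Junb, Fosl2, Batf and Atf3 form an upper group at 17.2 TPM or more in every library, and no other member passes 7.99 TPM.

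**Figure D2:**
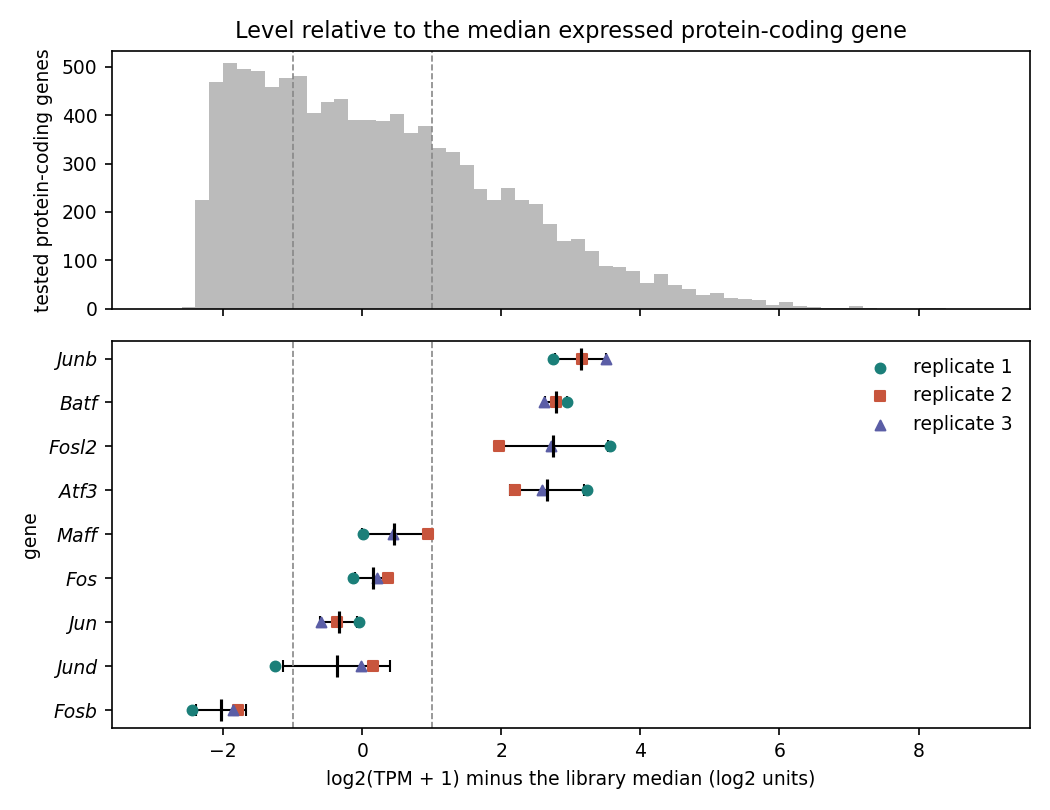
The upper panel counts the 10520 tested protein-coding genes by mean relative level, and the lower panel shows each tested member with its value in every library, its mean (vertical tick) and its SD (bar, n = 3). Dashed lines mark the bound of 1 log2 unit on each side of the median: all libraries of Junb, Fosl2, Batf and Atf3 lie beyond the upper line and all libraries of Fosb beyond the lower line.

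In the FOS family most of the RNA came from Fosl2. Fosl2, which encodes FRA2, a FOS protein that lacks the strong activation domain of FOS, had 75.8, 17.2 and 37.6 TPM in replicates 1 to 3 (4082, 1721 and 3118 expected counts). Replicate 1 was the highest and replicate 2 the lowest, and all libraries lay above their median gene. The relative level of Fosl2 was 2.74 ± 0.80 log2 units (SD, n = 3), above the bound with an adjusted p of 0.00224 in limma's treat. Fos itself, the founding member and the classic immediate early gene, had 4.88, 5.08 and 5.85 TPM. These values lay close together and close to the median gene, with a relative level of 0.15 ± 0.26 that passed no bound (adjusted p = 1 in limma's treat). Fosb, another immediate early gene, had 0.19, 0.36 and 0.63 TPM, from 9, 34 and 38 expected counts. All of its libraries were low, and its relative level of -2.03 ± 0.36 lay below the bound with an adjusted p of 0.00303 in limma's treat. With no minimum count the call of Fosb was lost (-1.08, adjusted p = 0.516), since genes near 0 then lower the median.

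Fosl1, which encodes FRA1, had 0, 0.13 and 0.05 TPM, from 0, 5.79 and 1.81 expected counts. Replicates 1 and 3 were under the floor of 3 counts, so Fosl1 was close to undetectable at this depth. Its transcripts share 54.5% of their stretches of 31 bases with Ccdc85b, which lies on the opposite strand and had 7, 8.21 and 10.19 expected counts. The strand setting of the authors' counting is not given in the sources used here, so reads of such overlapping genes cannot be told apart. Summed over the FOS family, the level was 80.9, 22.8 and 44.2 TPM. Fosl2 made up 93.7%, 75.6% and 85.2% of that sum and Fos 6.04%, 22.3% and 13.2%, so Fosl2 led in every library while the share of Fos was lowest in replicate 1.

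In the JUN family most of the RNA came from Junb. Junb, which encodes a JUN protein that is a weaker activator than JUN and can restrain it, had 42.7, 41.1 and 65.8 TPM, from 939, 1657.78 and 2161.71 expected counts. In the alignment-based tables it ranked 1 among the members in replicates 2 and 3 and 4 in replicate 1. Its relative level of 3.14 ± 0.37 lay above the bound (adjusted p = 0.000171 in limma's treat) and at percentile 92.4 of the tested protein-coding genes. Jun, the partner of FOS in the textbook dimer, had 5.27, 2.67 and 2.91 TPM. Its relative level of -0.34 ± 0.27 passed no bound, and replicate 1 was the highest. Jund, which encodes the JUN protein known for steady expression in resting cells, had 1.72, 4.22 and 4.85 TPM, from 35.08, 162.57 and 146.63 expected counts. Replicate 1 was low and the other libraries lay together at the median, as the relative levels of -1.26, 0.15 and -0.02 show.

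The JUN family summed to 49.7, 48 and 73.6 TPM, of which Junb made up 85.9%, 85.6% and 89.5%, Jun 10.6%, 5.57% and 3.96%, and Jund 3.46%, 8.8% and 6.59%. Junb led in every library, and Jun and Jund changed places between replicate 1 and the others. The level of Jund rests on reads that an antisense gene could share: 50.1% of its stretches of 31 bases also occur in Gm11175 on the opposite strand, which had 10.92, 22.43 and 11.37 expected counts. For Jun and its antisense gene Junos the share was 6.39%, and for Junb and Prdx2 it was 6.51%. Jun and Jund consist of a single exon, a class with low levels here: of 187 tested single-exon protein-coding genes 2.67% lay above the bound and 47.6% below it, with a median level of -1.43, against 24.5%, 19% and 0.03 for 10333 genes with introns. Junb, whose coding isoform Junb-201 also has a single exon and holds 96.9 ± 2.22% of its TPM, was not of this low kind, at 3.14 ± 0.37. The part of gene structure in these levels was not tested.

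Atf3 and Batf stood beside Junb and Fosl2. Atf3 encodes an ATF and CREB family protein that pairs with JUN proteins and is known in macrophages as an inducible repressor of inflammatory genes. It had 60, 20.4 and 34.3 TPM, from 1460, 902 and 1038 expected counts. Like Fosl2 it was highest in replicate 1 and lowest in replicate 2, and its relative level was 2.66 ± 0.53 (adjusted p = 0.000994 in limma's treat). When the fit was limited to genes averaging 100 or more counts, whose median is higher, the calls of Atf3 (1.60, adjusted p = 0.0684) and Fosl2 (1.67, adjusted p = 0.107) were lost in limma's treat, while those of Junb and Batf were not. Batf, a small bZIP protein without an activation domain that pairs with JUN proteins and works with IRF4 and IRF8, had 49.3, 31.5 and 35.5 TPM. It had 302, 307 and 322 expected counts on isoforms of 955 and 532 bases. Its relative levels of 2.95, 2.79 and 2.62 were the closest together of the members called above. Their mean of 2.79 ± 0.16 lay above the bound with an adjusted p of 0.000166 in limma's treat. Maff encodes a small MAF protein, which lacks an activation domain and binds DNA as a partner of NRF2 or BACH1. It had 5.54, 7.99 and 7.05 TPM and a relative level of 0.46 ± 0.46, and passed no bound.

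In the order of mean TPM in the alignment-based tables the genes ran Junb, Fosl2, Batf, Atf3, Maff, Fos, Jun, Jund, Fosb, Fosl1. Within the upper group the order was not fixed: Fosl2 ranked 1 in replicate 1 and 4 in replicate 2, and neighbouring genes differed by means of 0.39 ± 1.07 (Junb minus Fosl2), -0.05 ± 0.73 (Fosl2 minus Batf) and 0.12 ± 0.45 (Batf minus Atf3) log2 units, each smaller than its SD. A wide step followed, since Atf3 exceeded Maff by 3.22, 1.25 and 2.13 log2 units in replicates 1 to 3. Maff exceeded Fos in every library by a mean of 0.32 ± 0.22, Fos minus Jun was 0.48 ± 0.50 and Jun minus Jund was 0.04 ± 1.01. Jund exceeded Fosb by 1.66 ± 0.41, again in every library, and Fosb exceeded Fosl1 by 0.38 ± 0.22. The exact two-sided sign-flip test cannot go below a p of 0.25 with 3 libraries, and over the 9 neighbouring pairs the smallest adjusted p was 0.562. All these differences are from the alignment-based tables. In the alignment-free tables Atf3 was the highest member in every library, at 167, 33.4 and 70 TPM in replicates 1 to 3. Junb had 46.9, 28 and 55.6 TPM there.

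A large part of the RNA of Fosl2 and Batf was assigned to isoforms annotated as intron-retaining. In chromatin RNA, reads from precursors not yet spliced can fall in the same introns, and these sources cannot be told apart here. For Batf, on the plus strand at chr12:85686669-85709087 (mm10), the isoform Batf-202 is typed as retained intron. It is 532 bases long, 451 of which lie in an intron of the coding isoform Batf-201. Batf-202 took 72.8%, 80.5% and 67.3% of the TPM of the gene in the alignment-based tables (73.5 ± 6.6%, SD, n = 3) and 67.9 ± 5.3% in the alignment-free tables. It led in every library by both methods. For Fosl2, on the plus strand at chr5:32135801-32157842, the isoforms Fosl2-202 and Fosl2-203 of the same type took 69.7%, 67.6% and 62.2% together, and 75.5 ± 1.39% in the alignment-free tables. Fosl2-202 holds 2839 intronic bases. These shares put Batf at percentile 89.2 and Fosl2 at percentile 81.5 of 5737 genes with such an isoform and a mean of at least 1 TPM, whose median share was 45.7%. In the alignment-free tables Batf was at percentile 82.3 and Fosl2 at 89.5, with a median of 44.4%. As shares of expected counts, which do not favour short isoforms, they were lower, at 53.7 ± 8.12% for Batf and 44.5 ± 5.53% for Fosl2. The coding isoforms alone had 13.4, 6.15 and 11.6 TPM (Batf-201) and 22.9, 5.58 and 14.2 TPM (Fosl2-201) in replicates 1 to 3. The median tested protein-coding gene had 5.5, 3.7 and 4.92 TPM over all its isoforms. The calls of Batf and Fosl2 thus include isoforms annotated as intron-retaining, and the coding isoforms alone were not tested.

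Fos showed the effect of isoform length on the scale. The short processed transcripts Fos-202 and Fos-203 held 64.0 ± 9.1% of the TPM of Fos but 31 ± 9.56% of its expected counts. The coding isoform Fos-201 held the rest, 25.9%, 38.9% and 43.4% of the TPM in replicates 1 to 3. Of the 795 bases of Fos-203, 244 lie in an intron of Fos-201, and of the 631 bases of Fos-202 only 24 do. In Fosb the intron-retaining Fosb-204 took 32.1 ± 12.7% of the TPM, from 3.37, 13.7 and 8.1 expected counts. Junb was almost entirely its coding isoform Junb-201, with 97.6%, 94.4% and 98.6% of the TPM. The noncoding Junb-202, which overlaps Prdx2, reached 3.11 ± 2.22% in the alignment-based tables and 16.1 ± 5.12% in the alignment-free tables.

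**Figure D3:**
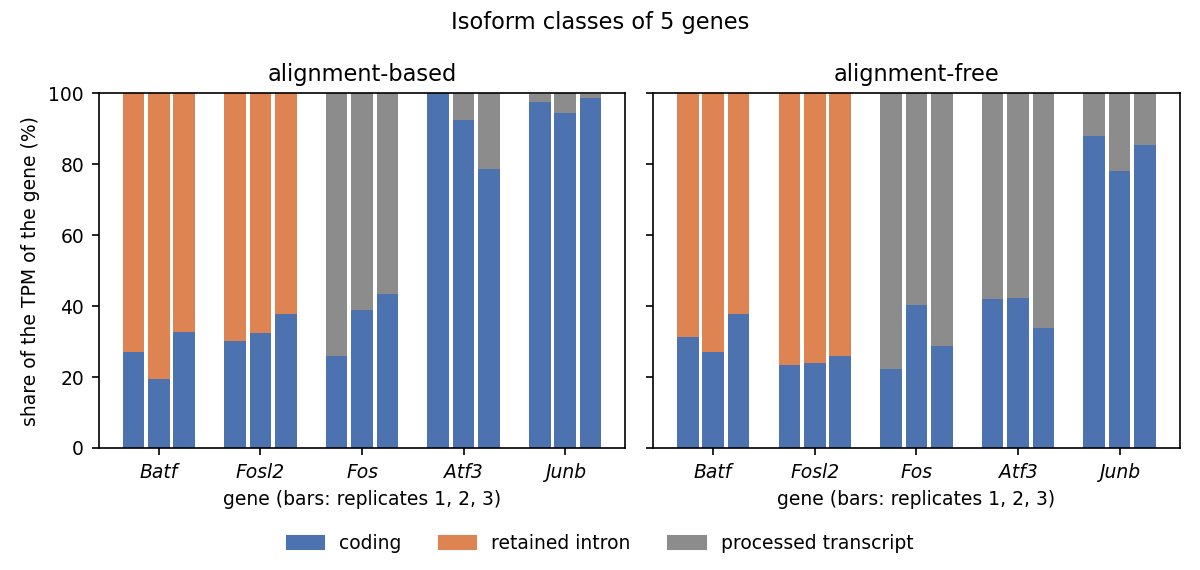
Stacked bars give the share of the TPM of 5 genes in coding, intron-retaining and processed noncoding isoforms, with a bar for each of replicates 1, 2 and 3, in the alignment-based (left) and the alignment-free (right) tables. Isoforms annotated as intron-retaining take 62.2% or more of Batf and Fosl2 in every bar. The noncoding isoform of Atf3 takes 9.57% on average on the left and 60.7% on the right.

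Atf3, on the minus strand at chr1:191170296-191218039, has a distal start in the annotation, from which the coding isoform Atf3-203 begins, and a proximal start used by the coding isoform Atf3-201. In the alignment-based tables Atf3-203 took 51.6%, 0% and 2.36% of the TPM and Atf3-201 took 48.4%, 92.6% and 76.3%. The distal start thus had a sizeable share in replicate 1 and next to none in the others. In the alignment-free tables Atf3-203 had 0%, 0% and 0.175%, in replicate 1 too. Atf3-203 has 170 bases that no other coding isoform has. The short noncoding Atf3-202, none of whose bases lie outside the coding isoforms, had 0%, 7.4% and 21.3% in the alignment-based tables and 58.0%, 57.8% and 66.3% in the alignment-free tables.

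Maff, on the plus strand at chr15:79346621-79359076, has 4 annotated starts. Maff-201 took 54.3%, 34% and 43.5% of the TPM in the alignment-based tables and 17.9 ± 8.87% in the alignment-free tables. Maff-204, the shortest isoform, took 25.1%, 37.9% and 36.2%, and 53.9 ± 12.8% in the alignment-free tables. Maff-201 had the higher mean share in the alignment-based tables, though not in replicate 2, and Maff-204 had it in the alignment-free tables. Maff-202 took 21.4 ± 6.26%, and Maff-203, from the most upstream start, was at 0 in replicates 1 and 2 and at 4.68% in replicate 3.

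The promoters at these starts are printed because the isoform values bear on them. RefSeq (GRCm38.p6) lists starts at the first base of Maff-203, Maff-201 and Maff-204, at the first base of Jun-201 and 7 bases into Atf3-201. The windows are the last 100 bases before the RefSeq start: chr15:79346521-79346620, chr15:79347420-79347519 and chr15:79348302-79348401 on the plus strand for Maff, chr4:95052223-95052322 on the minus strand for Jun and chr1:191183334-191183433 on the minus strand for Atf3. Capitals mark matches to TGACGTCA (the cyclic AMP response element, CRE), to its variant TGACATCA, to TGACG and to the NF-kB site.
Maff-203 start: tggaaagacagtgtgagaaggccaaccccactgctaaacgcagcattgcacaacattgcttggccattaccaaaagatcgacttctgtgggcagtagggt
Maff-201 start: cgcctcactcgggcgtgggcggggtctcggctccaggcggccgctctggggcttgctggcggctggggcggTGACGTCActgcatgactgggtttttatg
Maff-204 start: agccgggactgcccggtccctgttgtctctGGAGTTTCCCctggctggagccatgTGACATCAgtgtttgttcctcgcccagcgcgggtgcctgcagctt
Jun-201 start: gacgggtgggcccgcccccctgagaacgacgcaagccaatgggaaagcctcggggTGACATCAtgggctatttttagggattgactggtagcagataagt
Atf3-201 start: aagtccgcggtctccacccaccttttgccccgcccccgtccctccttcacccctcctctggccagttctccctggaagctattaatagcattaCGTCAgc
A CRE lay at positions -29 to -22 before Maff-201, the isoform with the highest mean share in the alignment-based tables. Before Maff-204 there was an NF-kB match at -70 to -61 and the variant at -45 to -38, which is also the position of the variant before Jun-201, and the window of Maff-203 held none of them. At the proximal start of Atf3 the capitals mark TGACG on the opposite strand, at -7 to -3.

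Motifs were searched in the 250 bases before the RefSeq starts of the 9 members that the table holds (Fosl1 is the other) and of 32817 promoters in all. Both strands were searched, except for the TATA box, which was searched on the strand of the gene only. A member counts once however many starts it has: Maff has 3 windows and the 9 members have 11, so counts of members and shares of promoters are in unlike units. The RefSeq start of Jund lies 1210 bases upstream of Jund-201 and that of Fosl2 lies 299 bases downstream of Fosl2-202, so their windows do not end at the M21 starts. The Fosl2 window, chr5:32136222-32136471, lies inside Fosl2-202 and downstream of the start of the coding isoform Fosl2-201 at 32135801. Matches in the Fosl2 window are therefore not upstream of either start. The AP-1 site TGANTCA, to which these proteins bind, was in 6.75% of all promoters and in 0 of the 9 members. TGACG was in 17.7% of all and in 6 members. The CRE, which contains TGACG on both strands, was in 1.55% of all and in 1 member (Maff), and TGACATCA was in 2.93% and in 2 members (Jun and Maff). The NF-kB site was in 7.25% of all and in 4 members, namely Fos, Fosb, Fosl2 and Maff. The TATA box TATAAA was in 7.6% and in 1 member, Fos, at -33 to -28. The CArG box bound by SRF was in 1.47% of all and in 0 members. CCAAT was in 33.8% and in 2 members, and GGGCGG was in 32.7% and in 7 members. A match describes letters in this window and not a bound site, and no match says nothing about sites elsewhere.

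Both quantifications of each library gave the same calls for the members. The alignment-based relative level exceeded the alignment-free level in all libraries for 7 of 9 tested members, with a median difference of 0.54 log2 units against 0.23 over 13427 genes. The difference was largest for Jun at 0.88 ± 0.19 and Junb at 0.77 ± 0.09. Atf3 went the other way, with 60, 20.4 and 34.3 TPM in the alignment-based tables, against 167, 33.4 and 70 TPM in the alignment-free tables, a difference in relative level of -0.50 ± 0.05. For Maff the methods differed by -0.03 ± 0.38. By limma's treat with the same bound, 0 of 9 members were called higher in the alignment-based tables, against a background of 0.633%, and 0 were called lower, against 1.92%. No member had a mean difference beyond the bound of 1 log2 unit, so the count at an unadjusted p under 0.05 was 0 as well and adds nothing. Differences smaller than the bound were not tested, and no other tool was run on this difference.

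**Figure D4:**
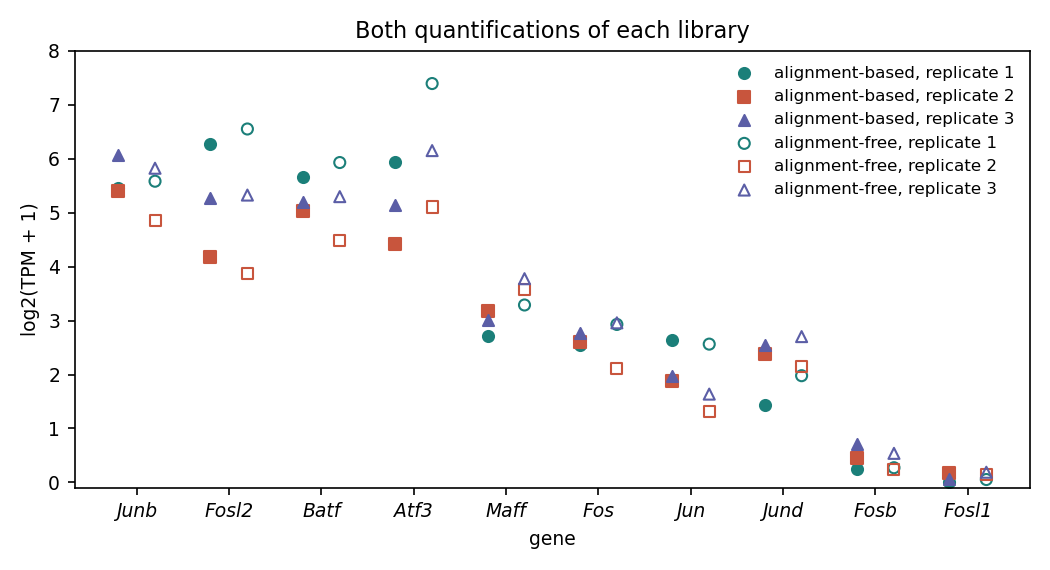
log2(TPM + 1) of the 10 genes in the alignment-based tables (filled markers, left of each pair) and the alignment-free tables (open markers, right), with 1 marker shape for each library. Atf3 sits higher in the alignment-free tables in every library, by the most in replicate 1 (60 against 167 TPM).

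The libraries differed most where replicate 1 was included. On log2 CPM with TMM normalisation the median SD over libraries was 0.525 for the 9 tested members and 0.398 for all tested genes. Without replicate 1 it was 0.146 for the members and 0.174 for all. The members moved in both directions in replicate 1. Jund, Fosb, Fos, Junb and Maff were lower there, at -1.25, -1.07, -0.65, -0.53 and -0.52 from the mean of the gene. Fosl2, Atf3 and Jun were higher, at 0.69, 0.54 and 0.24. Jund had the widest spread, with an SD of 1.09 (percentile 96 of all tested genes), and Batf the narrowest, with an SD of 0.09 (percentile 4.69). Replicate 1 also had the largest starting amount, the fewest counts and the smallest share in the locus with ribosomal RNA sequence, and the part of these in the spread cannot be told apart.

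**Figure D5:**
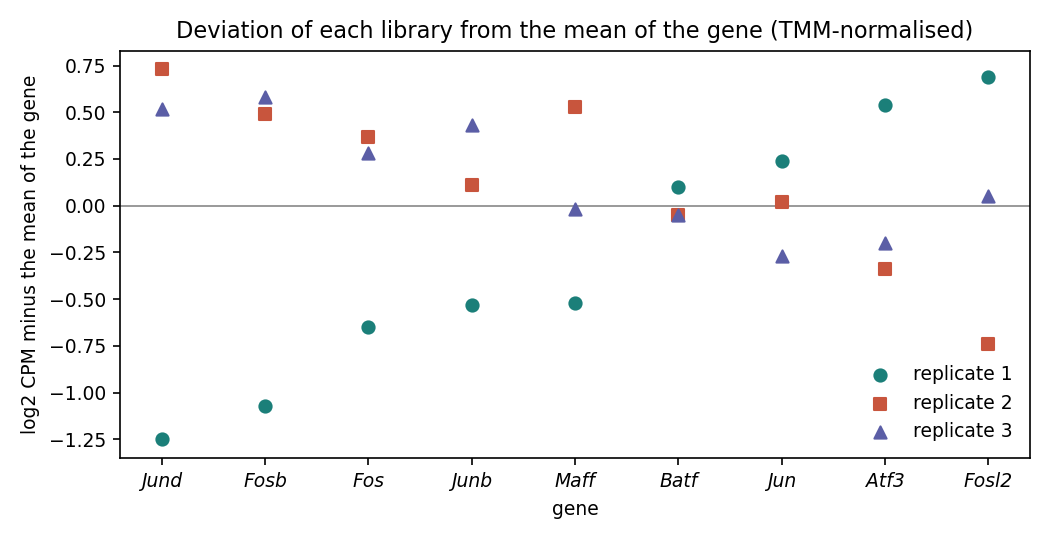
Deviation of each library from the mean of the gene in log2 CPM, for the 9 tested members in the order of replicate 1. Replicate 1 runs between -1.25 for Jund and 0.69 for Fosl2, while replicates 2 and 3 lie on the same side of the mean for Jund, Fosb, Fos, Junb, Batf and Atf3.

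Fos and Batf lie 209395 bases apart on the plus strand of chromosome 12, and between them lies Jdp2, which encodes a JUN partner that represses AP-1 targets. Jdp2 had 79.9, 61.4 and 102 TPM and a relative level of 3.83 ± 0.26 (adjusted p = 3.2e-05 in limma's treat), above Batf at 2.79 ± 0.16 and Fos at 0.15 ± 0.26. In the alignment-free tables Jdp2 was higher still, at 271, 191 and 329 TPM. Of the other 3 annotated genes in the interval none passed a mean of 1.72 TPM. On chromosome 8 Jund (chr8:70698949-70700616, plus strand) and Junb (chr8:84974484-84978718, minus strand) are 14273867 bases apart. Fosb lies at chr7:19302696-19310051 and Jun at chr4:95049034-95052222, both on the minus strand, and Fosl1 lies at chr19:5447547-5455946 on the plus strand (mm10).

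Among 42 other bZIP genes, 37 were tested, of which 13 lay above the bound and 7 below it, beside 21.3% of all tested genes in each direction, with a median relative level of 0.52 against 0.46 for the members and -0.21 for all tested genes. Jdp2 was the highest. Bach1, a repressor that pairs with small MAF proteins, followed at 58.8 ± 34.4 TPM (3.22 ± 0.69). Nfe2l1 at 2.96 ± 0.29 and Nfe2l2, which encodes NRF2, at 2.73 ± 0.57 were next. The lowest genes called below were Creb3l2 at -2.11 ± 0.24 and Creb3l1 at -2.09 ± 0.15, which encode membrane-anchored CREB relatives. The nearest relatives of Batf did not reach its level summed over isoforms, since Batf2 had 15.3, 3.18 and 6.6 TPM and Batf3 had 5.03, 3.31 and 4.36 TPM. The coding isoform Batf-201 alone had 13.4, 6.15 and 11.6 TPM. Of the small MAF genes, Mafg at 25.4, 36 and 41.6 TPM lay above the bound (2.61 ± 0.52, adjusted p = 0.00106 in limma's treat), whereas Mafk averaged 11.5 ± 6.94 TPM and passed no bound. The large MAF gene Maf had a mean relative level of 1.07 ± 0.33 and passed no bound.

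Of the 19 tested genes of the MAP kinase arm that signals to AP-1, 12 lay above the bound, beside 21.3% of all tested genes. Mapkapk2 (MK2, a kinase downstream of p38) was the highest at 78 ± 17.1 TPM, followed by Map3k8 (TPL2, which activates the ERK arm) at 160, 19 and 43.2 TPM, Mapk14 (p38 alpha) at 46.3 ± 1.06 TPM and Map2k1 (MEK1) at 39.5 ± 2.51 TPM. Map3k8 was far higher in replicate 1 than in the others, as Fosl2 and Atf3 were. Of 9 tested genes of the SRF, ternary complex and MEF2 regulators, which control Fos and Jun, 4 lay above the bound (21.3% of all tested genes did): Mef2a at 63.3 ± 41.5 TPM, Mrtfa, Mrtfb and Elk4. Of 8 partners of BATF and AP-1, 4 lay above it, again beside 21.3% of all tested genes. They included Irf8, which binds DNA together with BATF, at 94.2 ± 70.9 TPM, and Runx1 at 87.7 ± 44 TPM. Stat3 and the macrophage master regulator Spi1 (PU.1) were the others, at 75.1 ± 33.8 and 18.7 ± 2.43 TPM. In the alignment-free tables Spi1 was higher, at 136, 46.1 and 76.5 TPM in replicates 1 to 3. Of 12 tested textbook targets of AP-1, 7 lay above the bound, with the same 21.3% over all tested genes. Cd44, a receptor for hyaluronan, had 589 ± 230 TPM, Cdkn1a (the cell cycle inhibitor p21) 79 ± 4.04, Spp1 (osteopontin) 75.2 ± 33.9 and Plaur (the urokinase receptor) 63.4 ± 8.32. Ccnd1, which encodes cyclin D1, lay below it at 0.743 ± 0.361 TPM. Among tested protein-coding genes alone, 2533 of 10520 lay above the bound. The lists were not tested as lists, and a level at 90 minutes does not show control by any of the 10 factors.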

How the data were processed

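Gene and transcript tables of 3 chromatin RNA libraries were used. The authors made the deposited expected counts and TPM from alignments to the transcriptome (mm10, GENCODE M21), with RSEM-type columns per the file headers, and a further deposited transcript table of estimated counts and TPM without an alignment file, with kallisto-type columns. The deposited posterior mean TPM served as an alternative. The deposited percent column (isoform share) and the deposited signal columns (bounds of an interval for TPM) were made by the authors and were not used in a test, and isoform shares were recomputed from TPM. The sources used here do not give the aligner, tool versions, filters or strand setting.

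Alignment-free transcripts were summed to genes. Of 55536 gene entries, 13434 averaged 10 or more expected counts and were tested. tRNA, ERCC and phiX entries (26345) were left out of every test. Levels were log2(TPM + 1), with a pseudocount of 1 that understates differences of low genes, minus the median protein-coding gene (5.5, 3.7 and 4.92 TPM in replicates 1 to 3). limma 3.58.1 (R 4.3.3) gave treat tests with a bound of 1 log2 unit, intercept only. edgeR 4.0.16 and DESeq2 1.42.0 were alternatives on rounded expected counts. With an intercept alone edgeR's own threshold function could not be called, so its statistic was formed from the quasi-likelihood fit. TMM log2 CPM used a prior count of 2. Scripts were tested on simulated data.

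The members and lists were chosen with earlier results of these data known. All members are named. Of each other list, up to 4 genes called above with the highest mean level and up to 2 called below with the lowest are named, and Batf2, Batf3, Jdp2, Mafg, Mafk and Maf always, and 1 further gene of the last kind is not reported here. Markers follow the same rule. Genes beyond it are named for an overlap, a place beside a member, or a level of 0 among markers. Some markers are also named for passing no bound or for a gap between the quantifications. Python 3.11.15 was used for isoforms and sequences. Of the SRF list, 2 older symbols were not in the annotation.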

Additional observations from a re-analysis of the deposited data

How the results depend on the processing

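The 4 members above the bound and the 1 below it were the same genes with the median of all tested genes as reference, TMM scaling, a pseudocount of 0.1, posterior mean TPM, alignment-free TPM, edgeR, DESeq2 and without any of the replicates. The filter on low counts mattered, because it sets the median: it moved the levels of the members together, by 0.95 to 0.96 with no minimum and by -1.07 to -1.06 with a minimum mean count of 100. With a minimum mean count of 100, 2 members lay above (Junb and Batf; Fosl2 was at 1.67, adjusted p 0.107, and Atf3 at 1.6, adjusted p 0.0684, in limma's treat) and 0 below, since Fosb was no longer tested. The other bZIP genes then had 3 above and 2 below, and all genes 1317 above and 784 below. With no minimum, Fosl1 was called below in place of Fosb, 3 other bZIP genes lay below, and all genes had 4930 above and 5524 below. Against the median of all tested genes, 3196 genes lay above and 2084 below, in place of 2864 and 2858. Leaving out a replicate gave 1564 to 3223 genes below, with the lowest count without replicate 3. The median SD of the members then ran from 0.146 without replicate 1 to 0.762 without replicate 3. With this shift, levels that passed no bound changed sign, to 0.62 for Jun and 0.58 for Jund with no minimum and to -0.92 for Fos and -0.61 for Maff with a minimum of 100. Fos was at 0 with posterior mean TPM and at -0.38 with alignment-free TPM, and Jund at 0.08 without replicate 1, in a range from -0.65 over the replicates left out. For Jund the change follows from its low replicate 1, at -1.26 against 0.15 and -0.02 in replicates 2 and 3. Why that library was low and why Fos shifted was not tested. Over all alternatives the adjusted p ran from 4.29e-07 to 0.516 for Fosb, from 2.13e-13 to 0.107 for Fosl2 and from 2.46e-14 to 0.0684 for Atf3 (limma, edgeR or DESeq2). Of 32 recomputed shares of leading isoforms, 5 moved by more than 1 SD, all with alignment-free TPM. Leaving out 1 of 3 replicates cannot move a mean by 1 SD, so only the alignment-free shares could move. Those of Fos-202, Fosl1-201, Junb-201, Atf3-201 and Maff-201 did, and those of Fosb-201, Fosl2-202 and Batf-202 did not. No paired analysis was possible because there is 1 group. Depth limits Fosl1 and Fosb, with at most 5.79 and 38 expected counts in a library.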
